A study of Mus musculus and Homo sapiens with 65 samples.

Results

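Genes for RNA-binding proteins of the oocyte's stored-mRNA machinery are described here: Cpeb1, Cpeb2, Cpeb3, Cpeb4, Pum2, Dazl, Ybx2, Patl2 and Zar1. They were taken by symbol, which gave 9 of the 32287 genes of each table. Levels were read in late 2-cell mouse embryos in 4 groups. These were embryos treated with alpha-amanitin, an inhibitor of RNA polymerase II (2 libraries), embryos that received morpholinos targeting Kdm5a and Kdm5b (2 libraries), embryos that received 5-base mismatch versions of those morpholinos (2 libraries), and wild-type embryos (3 libraries). Morpholinos are antisense oligonucleotides that block translation or splicing of a transcript. For both morpholino groups, zygotes were injected at 0.5 days after conception and cultured to the late 2-cell stage. The sources used here give neither the dose and route of alpha-amanitin nor the mouse strain of these embryos. They do not say whether replicate libraries came from separate collections, so a p-value covers only how much these libraries vary, part of which may be technical.

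A fully grown oocyte stops transcribing and stores its mRNAs with short poly(A) tails, to be translated, kept silent or destroyed as the egg matures and the embryo begins to divide. Proteins bound to the 3′ untranslated region (UTR) help decide among these fates. CPEB proteins bind the U-rich cytoplasmic polyadenylation element (CPE), Pumilio proteins bind an element of their own and mostly repress, and DAZL binds U-rich sites and promotes translation. YBX2 coats and stabilises stored mRNA, PATL2 is an oocyte relative of the decay factor PATL1, and ZAR1 keeps stored mRNAs in the oocyte and is needed for the embryo to pass its earliest stage. In the mouse, most stored mRNA is lost by the 2-cell stage, when the embryo's own genome is switched on.

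Of these 9 genes, 7 also carry CPEs in their own transcripts, and the sites are shown because they are the element that part of the family reads. The CPE was searched as TTTTAT or TTTTAAT, on the transcript strand only, in the longest 3′ UTR of each gene in GENCODE M21 (build GRCm38, which is mm10). The CPE nearest the annotated 3′ end of each gene is in capitals, 5′ to 3′.
Cpeb1 chr7:81347257-81347286: cttgacttttctTTTTAATttaacgattac
Cpeb2 chr5:43289554-43289583: taatttagtttaTTTTATtgttatcttcca
Cpeb3 chr19:37021506-37021535: ggaataaattaaTTTTATgatgctaattct
Cpeb4 chr11:31935406-31935435: gggtaattcattTTTTATtaaagtcatttt
Pum2 chr12:8751625-8751654: tagaagggatttTTTTATtcgaggtctgca
Dazl chr17:50279752-50279781: aagtcaaaattcTTTTATgtcaccaagtca
Ybx2 chr11:69941532-69941561: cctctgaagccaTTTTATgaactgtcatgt
By the exon numbers of these transcripts, the sites lie in exon 12 of Cpeb1, exon 11 of Cpeb2, exon 11 of Cpeb3, exon 9 of Cpeb4, exon 20 of Pum2, exon 11 of Dazl and exon 9 of Ybx2. The Cpeb1, Cpeb3 and Dazl sites are on the minus strand. Patl2 and Zar1 had no CPE in 3′ UTRs of 366 and 146 bases.

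Of the 9 genes, 7 held at least 1 CPE, against 59.5% of the 19921 genes with a 3′ UTR of 100 bases or more. Cpeb2 held 24 in 3778 bases, or 6.35 per kb, and 98.1% of genes had a lower density. Cpeb4 held 17 in 4102 bases (4.14 per kb), and 94.2% of genes were lower. Dazl held 6 in 1854 bases (3.24 per kb), Cpeb1 held 4 in 1315 bases (3.04 per kb), and Pum2 held 8 in 2861 bases (2.80 per kb). Ybx2 held 1 in 414 bases, 62 bases before the annotated end, and was the only one of the 9 with a CPE in its last 100 bases, where 17.7% of genes have one. It was also the only one of the 9 without a polyadenylation signal (AATAAA or ATTAAA) in those bases, where 78.4% of genes have one. The other sites shown start between 159 bases (Cpeb2) and 945 bases (Pum2) before the annotated end. Cpeb3 had the lowest density of the 7, at 1.68 per kb, while the median over all genes was 0.768 per kb. The Pumilio element TGTANATA occurred 1 time each in the 3′ UTRs of Cpeb1, Cpeb2 and Cpeb3, and 2 times in that of Pum2. These matches describe the letters only. Binding, poly(A) tails and the 3′ ends used in these embryos were not measured.

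Levels are in FPKM (fragments scaled to transcript length and to the library's mapped fragments), so the genes can be ordered within a group. With alpha-amanitin, Ybx2 stood highest at 121 ± 1.52 FPKM, followed by Pum2 at 63.4 ± 11.4, Dazl at 62.4 ± 12.5 and Cpeb4 at 45.7 ± 3.90 (SD, n = 2). Below them came Cpeb3 at 21.1 ± 6.34, Cpeb1 at 18.6 ± 8.69, Zar1 at 9.64 ± 8.75 and Cpeb2 at 1.24 ± 0.195 FPKM. Ybx2 led the order with the Kdm5a+b morpholinos and Cpeb4 with the mismatch control, and Pum2 was the third in both. In wild-type embryos Cpeb4 stood highest at 58.9 ± 18.3 FPKM, followed by Pum2 at 52.4 ± 21.2 and Ybx2 at 47.4 ± 18.9 (SD, n = 3). The next were Cpeb1 at 28.4 ± 12.3, Dazl at 15.7 ± 7.79, Cpeb2 at 14.8 ± 3.603 and Cpeb3 at 12.5 ± 2.22 FPKM, and Zar1 was low at 2.58 ± 1.71 FPKM. Patl2 was close to 0 in all 9 libraries. The authors' estimate lay above its own upper bound for Cpeb1 in 1 Kdm5a+b morpholino library and for Pum2 in wild-type replicate 2. Neighbours in these orders that differed by less than the larger of their SDs were, with alpha-amanitin, Pum2 and Dazl, Cpeb3 and Cpeb1, and Zar1 and Cpeb2. They were Cpeb1 and Cpeb3 with the Kdm5a+b morpholinos, and Cpeb4 and Ybx2, Cpeb2 and Dazl, and Dazl and Cpeb3 with the mismatch control. In wild type they were the neighbours among the highest 3 genes and among Dazl, Cpeb2 and Cpeb3. Dazl stood above Cpeb4 with alpha-amanitin and below it in wild type.

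**Figure D1:**
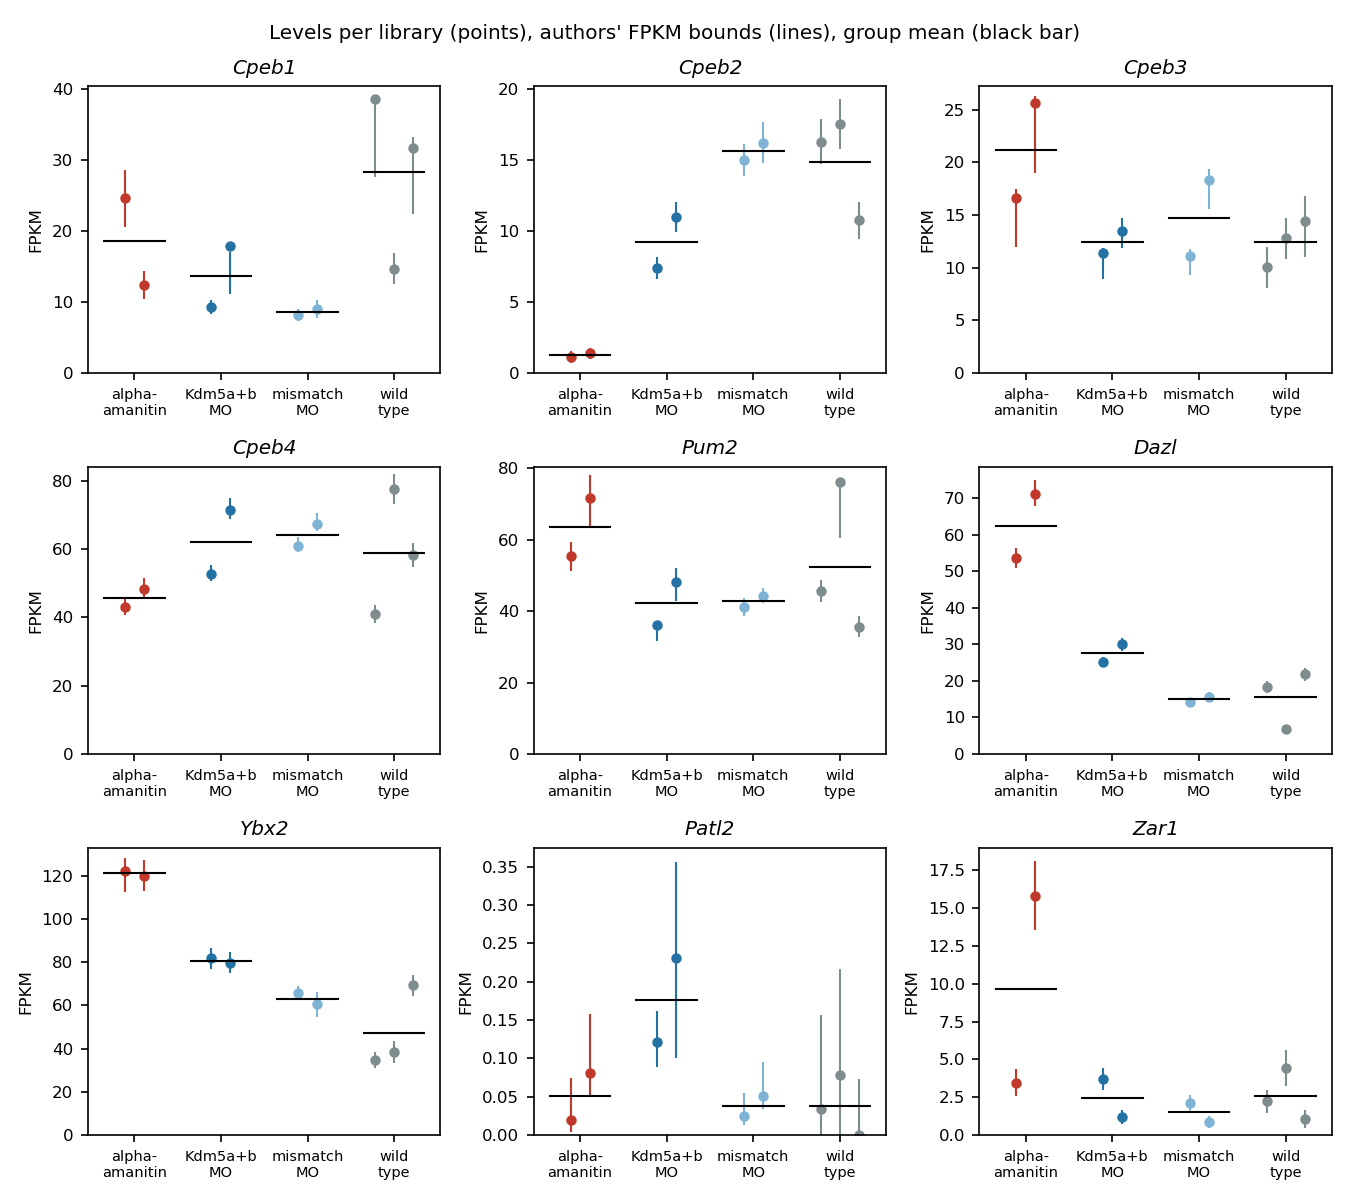
FPKM of each gene in every library (points) with the lower and upper bounds the authors deposited (vertical lines) and the group mean (black bar), for alpha-amanitin, Kdm5a+b morpholino (MO), mismatch control morpholino and wild type. Cpeb2 lies at 1.11 and 1.38 FPKM with alpha-amanitin and at 7.39 or more elsewhere, while Dazl and Ybx2 lie higher with alpha-amanitin than in any other library; each panel has its own axis.

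Alpha-amanitin against wild type asks which of these transcripts differ at the late 2-cell stage when RNA polymerase II is inhibited. Dazl and Ybx2 rose, by 3.99-fold and 2.55-fold in mean FPKM, and Cpeb2 fell. Of the 8 genes tested (Patl2 did not reach the filter of 1 FPKM in at least 2 libraries), 2 were called higher, where 4.31% of the 13137 tested genes were, and 1 lower, where 25.1% were. The other 5, Cpeb1, Cpeb3, Cpeb4, Pum2 and Zar1, were not called. The median difference in log2(FPKM + 1) of the 8 was 0.52, beside -0.56 over all tested genes. FPKM is relative to the rest of each library, and in pooled embryos fewer cells and less RNA per cell cannot be told apart.

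Among the CPEB genes, Cpeb2 (ENSMUSG00000039782.9, chromosome 5, 43233463 to 43289724, plus strand) was at 1.11 and 1.38 FPKM with alpha-amanitin, against 16.3, 17.5 and 10.7 FPKM in wild type. Both treated libraries lay below all 3 wild-type libraries, as for 41.1% of tested genes. Cpeb2 was the 1 family member of 4 that was called, as lower, where 25.1% of all tested genes were. The difference was -2.80 in log2(FPKM + 1) (SE 0.38), with a limma adjusted p of 0.000325. Within its library, Cpeb2 ranked 7750 and 7313 among all 32287 genes with alpha-amanitin, against 2900, 3050 and 4264 in wild type. Its exons overlap those of Gm7854 on the other strand, which stayed between 0.0137 and 0.328 FPKM in all libraries.

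Cpeb1 (chromosome 7, 81347026 to 81455465, minus strand) encodes the founding CPE-binding protein, which brings the polyadenylation machinery to stored mRNAs in oocytes. It was at 24.7 and 12.4 FPKM with alpha-amanitin, against 38.7, 14.7 and 31.8 FPKM in wild type. The groups overlapped because wild-type replicate 2 lay between the treated libraries, and the difference of -0.56 (SE 0.48) was not called (limma adjusted p = 0.41). Set against the mismatch control instead, a choice made after the data were seen, the difference was 0.95 (adjusted p = 0.221), so its direction turned with the reference.

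Cpeb3 (chromosome 19, 37021291 to 37208601, minus strand), best known as a translational regulator in neurons and overlapped by A330032B11Rik on the other strand, was at 16.7 and 25.6 FPKM with alpha-amanitin, against 10.1, 12.8 and 14.5 FPKM in wild type. The groups did not overlap, as for 13.4% of tested genes in that direction, but the difference of 0.70 (SE 0.36) was not called (limma adjusted p = 0.173). With quantile normalization it was 1.27 and called (limma adjusted p = 0.0279). No level of A330032B11Rik was available for these libraries. Cpeb4 (chromosome 11, 31872211 to 31935634, plus strand), which takes over from CPEB1 late in meiosis in frog oocytes, was at 43.0 and 48.5 FPKM with alpha-amanitin, against 41.0, 77.6 and 58.3 FPKM in wild type. Its groups overlapped, and the difference of -0.32 (SE 0.30) was within the spread (limma adjusted p = 0.455).

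The make-up of the family differed mostly in Cpeb2 and Cpeb3. The 4 CPEB transcripts summed to 86.7 ± 1.74 FPKM with alpha-amanitin (n = 2) and 115 ± 8.31 FPKM in wild type (n = 3). Cpeb2 made up 1.43 ± 0.196% of that sum with alpha-amanitin and 13.0 ± 3.22% in wild type. Cpeb3 made up 24.3 ± 6.83% with alpha-amanitin and 10.8 ± 1.56% in wild type. Cpeb4 held the largest share in all 9 libraries, with 52.7 ± 3.44% with alpha-amanitin and 50.8 ± 12.3% in wild type. The shares of 1 library add up to a whole and are not independent, and they were not tested.

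**Figure D2:**
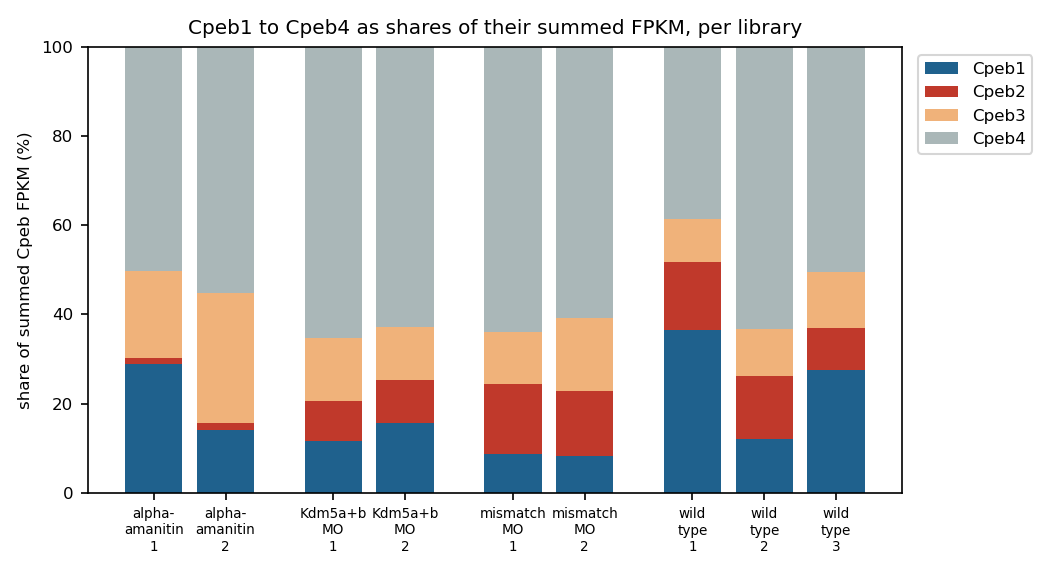
Share of the summed FPKM of Cpeb1, Cpeb2, Cpeb3 and Cpeb4 held by each gene (percent, stacked bars), 1 bar per library, in the order alpha-amanitin, Kdm5a+b morpholino (MO), mismatch control morpholino and wild type. The Cpeb2 band is 1.29 and 1.57% with alpha-amanitin and 9.13% or more in the other 7 libraries.

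Pum2 (chromosome 12, 8674134 to 8752581, plus strand), a Pumilio repressor of translation, was at 55.4 and 71.5 FPKM with alpha-amanitin, against 45.6, 76.2 and 35.4 FPKM in wild type. The treated libraries lay inside the wild-type range, and the difference of 0.33 (SE 0.33) was not called (limma adjusted p = 0.481).

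Dazl (ENSMUSG00000010592.8, chromosome 17, 50279394 to 50293599, minus strand), a germ cell protein that promotes translation of stored mRNAs during oocyte maturation, was at 53.6 and 71.3 FPKM with alpha-amanitin, against 18.3, 6.89 and 21.8 FPKM in wild type. Both treated libraries lay above every wild-type library, as for 13.4% of tested genes, and replicate 2 was the lowest wild-type library. The difference was 2.05 (SE 0.43; limma adjusted p = 0.0048). Dazl ranked 719 and 544 in its library with alpha-amanitin, against 2647, 5643 and 2354 in wild type.

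Ybx2 (ENSMUSG00000018554.8, chromosome 11, 69935796 to 69941605, plus strand), also called MSY2, a Y-box protein that packages and stabilises mRNA in germ cells, was at 122 and 119.9 FPKM with alpha-amanitin, against 34.8, 38.3 and 69.2 FPKM in wild type. The treated libraries agreed closely and lay above all 3 wild-type libraries, as for 13.4% of tested genes. The difference was 1.40 (SE 0.30; limma adjusted p = 0.005), and Ybx2 ranked 251 and 284 with alpha-amanitin against 1310, 1415 and 545 in wild type. Set against the mismatch control, which lay higher than 2 of the 3 wild-type libraries, the difference was 0.93 (SE 0.32) and no longer called (limma adjusted p = 0.0619). For 2 against 3 libraries the smallest two-sided p of an exact permutation test is 0.2, reached wherever the groups do not overlap. Dazl, Ybx2 and Cpeb3 reached it as higher, beside 13.4% of tested genes, and Cpeb2 as lower, beside 41.1%. A list of 10 stored egg transcripts, used as a check of stage, summed to between 1165 and 1206 FPKM with alpha-amanitin, against 586 to 767 FPKM in wild type. Of its 9 tested genes 8 had a difference above 0, with a median of 0.47 beside -0.56 over all tested genes. The 1 called higher, where 4.31% of tested genes were, was the growth factor gene Bmp15. Its level was 475 ± 17.0 FPKM with alpha-amanitin and 201 ± 40.5 FPKM in wild type. The part of these transcripts in the higher Dazl and Ybx2 levels was not tested.

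Zar1 (chromosome 5, 72577114 to 72581084, minus strand) was at 3.45 and 15.8 FPKM with alpha-amanitin, against 2.23, 4.44 and 1.07 FPKM in wild type. The treated replicates differed from each other by more than the wild-type libraries did. The difference of 1.39 (SE 0.68) was not called (limma adjusted p = 0.153); leaving out alpha-amanitin replicate 2 gave 0.43 and leaving out replicate 1 gave 2.34. With quantile normalization it was 2.20 and called (limma adjusted p = 0.0264). Its relative Zar1l was at 0.589 ± 0.522 FPKM with alpha-amanitin and 2.59 ± 1.33 FPKM in wild type (-1.15, SE 0.50; limma adjusted p = 0.107). Patl2 (chromosome 2, 122120108 to 122186189, minus strand) was at 0.0190 and 0.0815 FPKM with alpha-amanitin, against 0.0341, 0.0781 and 2.59e-176 FPKM in wild type, too low to compare. Its relative Patl1 was at 41.0 ± 9.49 FPKM with alpha-amanitin and 23.5 ± 1.67 FPKM in wild type (0.76, SE 0.32; limma adjusted p = 0.101).

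Dazl and Ybx2 were picked for a promoter display because they were the 2 members called higher with alpha-amanitin. RNA polymerase II was inhibited in those embryos, and any part of the promoters in these levels was not tested. The sequences are from RefSeq (GRCm38.p6, 300 bases around the annotated start, 5′ to 3′ on the gene's strand). Capitals mark the CCAAT box, the Y-box core, searched as CCAAT or its reverse complement ATTGG.
Dazl chr17:50293571-50293870: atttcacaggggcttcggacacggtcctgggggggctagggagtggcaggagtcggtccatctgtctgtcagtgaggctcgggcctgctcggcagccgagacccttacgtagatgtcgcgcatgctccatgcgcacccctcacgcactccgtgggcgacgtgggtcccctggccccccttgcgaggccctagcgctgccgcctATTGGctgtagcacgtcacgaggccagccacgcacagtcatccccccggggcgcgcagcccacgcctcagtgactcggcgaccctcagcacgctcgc
Ybx2 chr11:69935649-69935948: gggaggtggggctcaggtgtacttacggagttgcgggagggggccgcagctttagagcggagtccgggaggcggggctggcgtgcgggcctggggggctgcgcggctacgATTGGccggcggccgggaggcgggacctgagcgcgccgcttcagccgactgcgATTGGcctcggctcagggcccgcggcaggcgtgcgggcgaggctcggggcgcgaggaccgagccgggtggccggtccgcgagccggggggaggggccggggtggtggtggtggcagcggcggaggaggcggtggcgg
The Dazl promoter is on the minus strand and the Ybx2 promoter on the plus strand. Dazl held 1 CCAAT box and Ybx2 held 2, a motif found in 37.4% of the 32851 mouse promoters of this length. A further annotated Ybx2 start site, at chr11:69936078-69936377, held 0 CCAAT boxes and 32 CpG dinucleotides. The promoters shown held 28 and 40 CpG dinucleotides in Dazl and Ybx2, beside a median of 7 over all promoters. Of the other members, Cpeb2 had no promoter sequence in the set used. Patl2 held 2 CCAAT boxes and Cpeb4 held 1, while Cpeb1, Cpeb3, Pum2 and Zar1 held 0. Their CpG counts were 33 in Cpeb1, 27 in Cpeb4, 35 to 44 in Pum2, 17 in Zar1 and 10 in Patl2. The 3 Cpeb3 start sites held 42, 0 and 4. Neither trait was particular to Dazl and Ybx2. A match is a description of these letters, and no binding was measured.

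**Figure D3:**
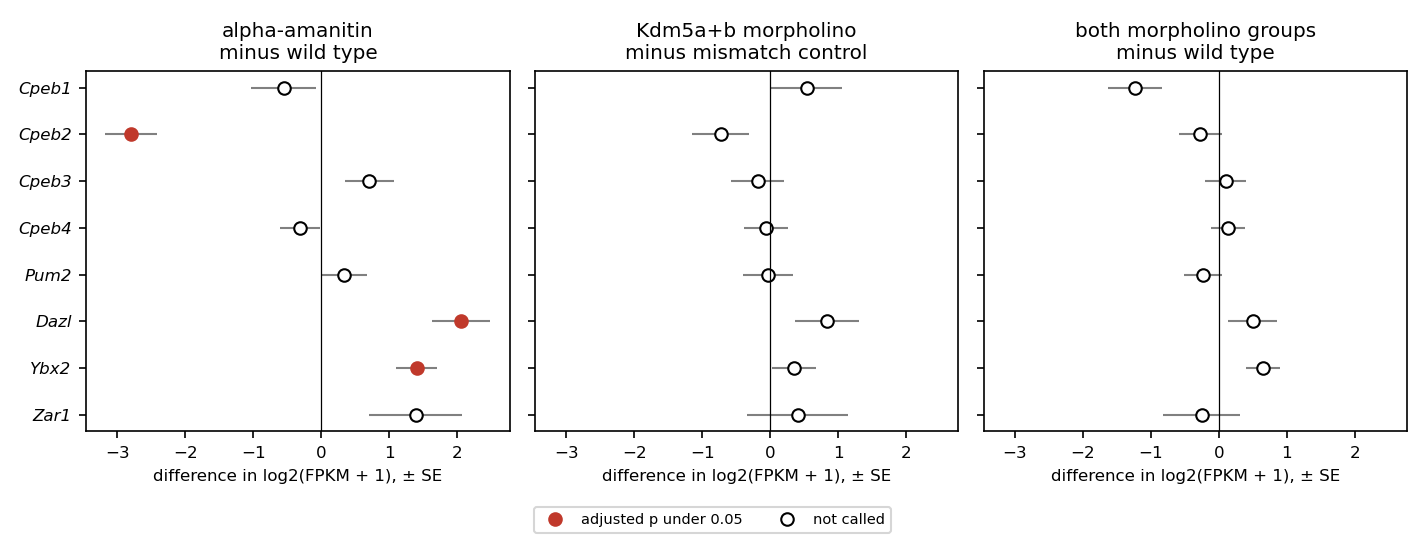
Difference in log2(FPKM + 1) with its standard error for the 8 tested genes, in alpha-amanitin against wild type (left), Kdm5a+b morpholino against mismatch control morpholino (middle) and both morpholino groups against wild type (right); filled red points have a limma adjusted p under 0.05. Only Cpeb2, at -2.80, Dazl, at 2.05, and Ybx2, at 1.40, are filled, all in the left panel.

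Kdm5a+b morpholino against mismatch control morpholino sets embryos given morpholinos against the H3K4 demethylase genes Kdm5a and Kdm5b beside embryos injected with mismatch versions. Whether either protein was reduced was not measured in these files. None of the 8 tested genes was called, beside 0.0% of all tested genes (limma adjusted p = 1.0 for each), and none was past an unadjusted p of 0.05, where 3.15% of tested genes were. The median difference of the 8 was 0.16, beside 0.00 over all tested genes. Dazl had 25.2 and 30.03 FPKM in Kdm5a+b morpholino embryos, against 14.3 and 15.7 FPKM in mismatch controls, a difference of 0.83 (SE 0.47). Cpeb2 had 7.39 and 11.0 FPKM in Kdm5a+b morpholino embryos, against 15.0 and 16.2 FPKM in mismatch controls, a difference of -0.73 (SE 0.42). Both differences were smaller than 2 standard errors. Ybx2 had 81.7 and 79.7 FPKM in Kdm5a+b morpholino embryos, against 65.6 and 60.4 FPKM in mismatch controls (0.35, SE 0.32), and Cpeb1 had 9.35 and 17.9 FPKM in Kdm5a+b morpholino embryos, against 8.18 and 9.08 FPKM in mismatch controls (0.54, SE 0.52). In these 4 of the 8 tested genes the groups did not overlap, as for 33.3% of tested genes. The smallest two-sided p of an exact permutation test of 2 against 2 is 0.333. Patl2, too low to compare, had 0.122 and 0.231 FPKM in Kdm5a+b morpholino embryos against 0.0251 and 0.0507 FPKM in mismatch controls.

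For the remaining genes the groups overlapped. Cpeb3 had 11.4 and 13.5 FPKM in Kdm5a+b morpholino embryos, against 11.1 and 18.3 FPKM in mismatch controls. Cpeb4 had 52.8 and 71.5 FPKM in Kdm5a+b morpholino embryos, against 60.8 and 67.4 FPKM in mismatch controls. Pum2 had 36.1 and 48.2 FPKM in Kdm5a+b morpholino embryos, against 41.1 and 44.3 FPKM in mismatch controls. The differences of these 3 genes were -0.19, -0.06 and -0.03. Zar1 had 3.70 and 1.18 FPKM in Kdm5a+b morpholino embryos, against 2.10 and 0.887 FPKM in mismatch controls (0.40, SE 0.74).

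Morpholino-injected against wild type sets all 4 injected libraries beside the 3 uninjected ones, and it shares its wild-type libraries with the alpha-amanitin comparison. No gene of the 8 was called, beside 0.0% of all tested genes. Cpeb1 was at 11.1 ± 4.56 FPKM in injected embryos (n = 4) and 28.4 ± 12.3 FPKM in wild type (n = 3). The difference was -1.24 (SE 0.40, limma unadjusted p = 0.0106, adjusted p = 0.633). The highest injected library, at 17.9 FPKM, lay above the lowest wild-type library, at 14.7 FPKM, and the exact permutation test gave a two-sided p of 0.114. Ybx2 was at 71.9 ± 10.5 FPKM in injected embryos and 47.4 ± 18.9 FPKM in wild type, a difference of 0.65 (SE 0.25; limma unadjusted p = 0.0255, adjusted p = 0.658). Its groups also overlapped, and the exact permutation test gave a two-sided p of 0.171. These were the 2 of the 8 genes past an unadjusted p of 0.05, where 6.87% of tested genes were. The groups overlapped in all 8 genes, while they did not in 8.21% of tested genes. The Dazl difference was 0.50 (SE 0.36), and the other 5 lay between -0.27 and 0.13.

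A wider list of 59 genes of translational control in oocytes and embryos was read beside the 9, of which 55 were in the files and 53 were tested. With alpha-amanitin, 5 of the 53 were called higher (3 without wild-type replicate 3), beside 4.31% of all tested genes, 18 lower, beside 25.1%, and 30 not, with a median difference of -0.21 beside -0.56 over all tested genes. The Y-box gene Ybx3 was at 214 ± 12.9 FPKM with alpha-amanitin and 60.8 ± 12.2 FPKM in wild type (1.82, SE 0.23; limma adjusted p = 0.000216). Eif4e1b, an oocyte form of the cap-binding protein, was at 237 ± 19.2 FPKM with alpha-amanitin and 77.1 ± 7.63 FPKM in wild type (1.61, SE 0.21; limma adjusted p = 0.000266). The RNA-binding gene Rbpms2 was at 195 ± 44.3 FPKM with alpha-amanitin and 86.2 ± 10.04 FPKM in wild type (1.16, SE 0.24; limma adjusted p = 0.00401). Pan3, a subunit of a deadenylase, was at 489 ± 146 FPKM with alpha-amanitin and 291 ± 19.3 FPKM in wild type (0.71, SE 0.21; limma adjusted p = 0.0283), and had the highest wild-type mean of the list. The fifth gene called higher was Pabpc1l, the embryonic poly(A)-binding protein, named beyond the rule because it completes this small group.

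Those that fell included the general poly(A)-binding protein gene Pabpc1, at 3.35 ± 0.250 FPKM with alpha-amanitin and 133 ± 38.1 FPKM in wild type (-4.90, SE 0.30; limma adjusted p = 3.38e-06). Tacc3, whose product works at the spindle and belongs to the frog oocyte's CPEB complex as maskin, was at 5.02 ± 0.417 FPKM with alpha-amanitin and 103 ± 52.0 FPKM in wild type (-3.99, SE 0.37; limma adjusted p = 2.71e-05). Larp1, which binds the cap of ribosomal protein mRNAs, was at 1.27 ± 0.246 FPKM with alpha-amanitin and 22.7 ± 5.02 FPKM in wild type (-3.37, SE 0.35; limma adjusted p = 5.97e-05). Eif4e2, a cap-binding repressor, was at 0.760 ± 0.418 FPKM with alpha-amanitin and 18.3 ± 4.56 FPKM in wild type (-3.45, SE 0.37, limma adjusted p = 7.10e-05). Both other genes of the highest wild-type levels were not called: Eif4enif1, at 220.4 ± 0.822 FPKM with alpha-amanitin and 268 ± 99.3 FPKM in wild type (limma adjusted p = 0.56), and Lsm14a, at 298 ± 5.68 FPKM with alpha-amanitin and 218 ± 25.8 FPKM in wild type (limma adjusted p = 0.0788).

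**Figure D4:**
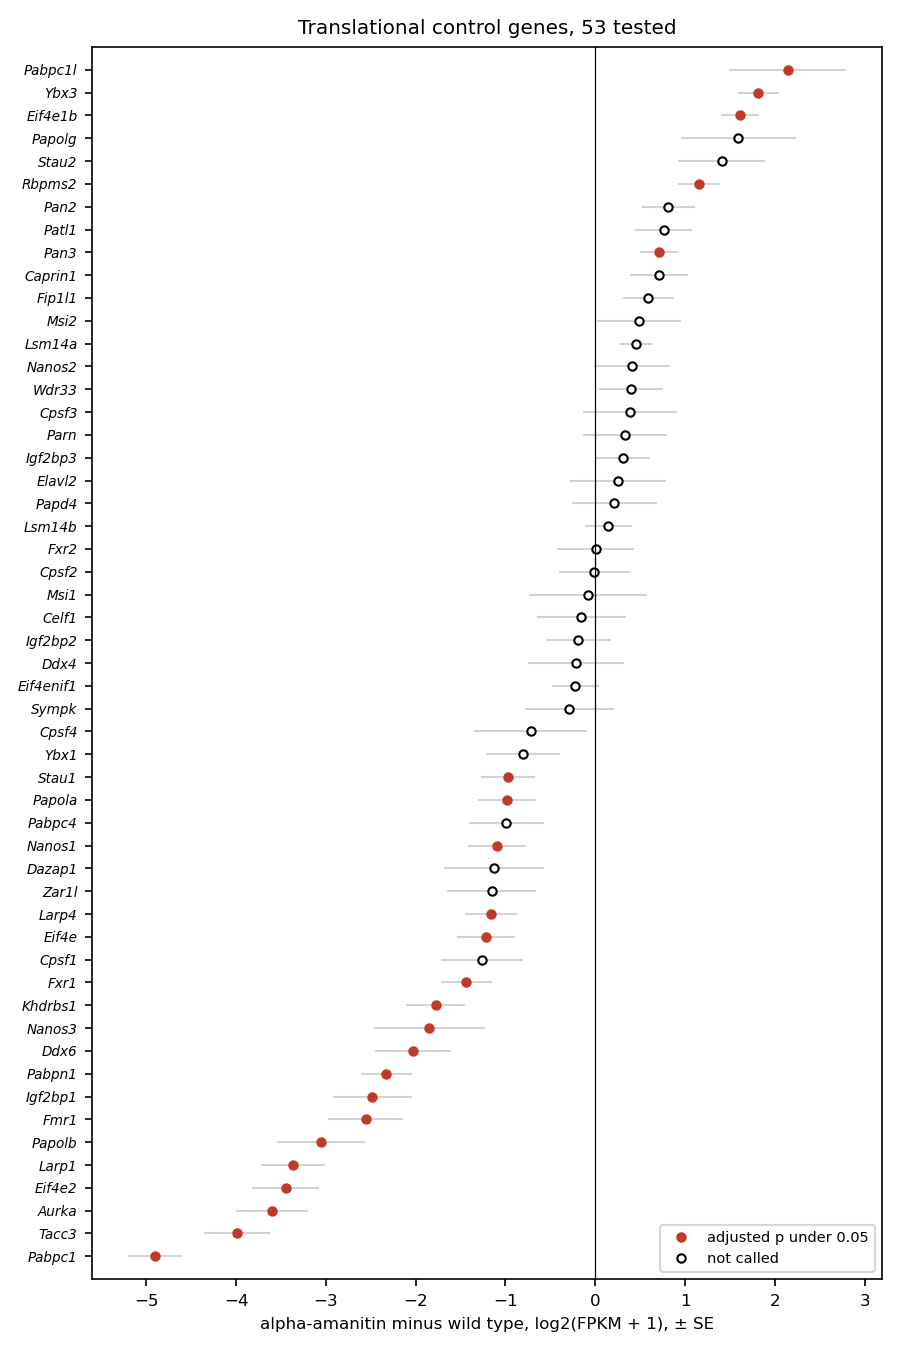
Difference in log2(FPKM + 1) between alpha-amanitin and wild type, with its standard error, for the 53 tested genes of the translational control list, sorted by value; filled red points have a limma adjusted p under 0.05. The 5 filled points right of 0 include Ybx3 at 1.82 and Eif4e1b at 1.61, and the lowest of the 18 filled points left of 0 is Pabpc1 at -4.90.

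In the morpholino comparisons no gene of this list was called. The smallest p in Kdm5a+b against mismatch control were those of Eif4e1b, at 149.5 ± 18.2 FPKM with the Kdm5a+b morpholinos and 82.2 ± 11.96 FPKM in mismatch controls (0.86, SE 0.23), and of the germ cell repressor gene Nanos3, at 0.485 ± 0.411 FPKM with the Kdm5a+b morpholinos and 6.66 ± 4.80 FPKM in mismatch controls (-2.24, SE 0.67), each with a limma adjusted p of 1.0. In injected against wild-type embryos they were those of Ybx3 (0.73, SE 0.19; limma adjusted p = 0.555) and Eif4e1b (0.52, SE 0.18; limma adjusted p = 0.633).

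A second list held 23 oocyte mRNAs, among them described targets of CPEB1, DAZL or ZAR1, of which 22 were tested. With alpha-amanitin 3 were called higher, beside 4.31% of all tested genes, and 5 lower, beside 25.1%, with a median difference of 0.17 beside -0.56 over all tested genes. Those higher were Cnot6l and Cnot7, subunits of the CCR4-NOT deadenylase, by 1.46 and 0.92, and the meiotic kinase gene Wee2, at 435 ± 21.8 FPKM with alpha-amanitin and 199 ± 49.9 FPKM in wild type (1.16, SE 0.25; limma adjusted p = 0.00597). The synaptonemal complex gene Sycp3, a described DAZL target, was at 2.19 ± 0.316 FPKM with alpha-amanitin and 61.5 ± 5.17 FPKM in wild type (-4.29, SE 0.28; limma adjusted p = 4.22e-06). The cell division activator gene Cdc20 fell by 4.08, Tex19.1 by 2.36 and the spindle gene Tpx2 by 1.60, and Slbp was the fifth. In neither morpholino comparison was a gene of this list called; the smallest p were those of Oosp1 (0.59, SE 0.24) and Dcp1a (0.58, SE 0.28) with the Kdm5a+b morpholinos, and of Slbp (-0.69, SE 0.23) and Sycp3 (-0.58, SE 0.23) in injected embryos.

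By Pearson's r of log2(FPKM + 1) over the 9 libraries, which share groups and in which both alpha-amanitin libraries stand apart, the tested genes most like Cpeb2 were Rab24 (r = 0.990) and Chtf8 (r = 0.989). Those most like Dazl were Zfp385a (r = 0.971) and Zc3h7b (r = 0.963), and those most like Ybx2 were Fbxw21 (r = 0.964) and Zfp846 (r = 0.961). Cpeb3 was closest to Tmem168 (r = 0.977) and Tjap1 (r = 0.959). For the other genes, r was 0.916 and 0.903 for Cpeb1 with Abhd5 and Tmem30a, and 0.962 and 0.960 for Cpeb4 with Wdr92 and Gm3604. Wdr92 was near the floor, with means of 0.173 FPKM with alpha-amanitin and 0.519 FPKM in wild type, as was Gm3604, at 0.187 and 1.08 FPKM. The r was 0.951 and 0.942 for Pum2 with Snx22 and Gm11868, and 0.928 and 0.926 for Zar1 with Gm26919 and Ada. Gm26919 was also low, with means of 1.47 FPKM with alpha-amanitin and 0.683 FPKM in wild type. Zfp846 was at 0.977 FPKM in wild type, and Rab24 and Chtf8 were at 0.223 and 0.00324 FPKM with alpha-amanitin. The r values were picked as the highest among all tested genes and carry no test.

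The 9 transcripts switched on at the 2-cell stage summed to between 5.89 and 7.72 FPKM with alpha-amanitin, against 218 to 284 FPKM in wild type, and all 9 were called lower. Of the marker lists for other cells, cumulus markers (10 genes, Foxl2 listed at 0 in all groups) summed to at most 0.547 FPKM with alpha-amanitin and 15.2 FPKM in wild type, with Amhr2 and Tnfaip6 called lower. Oviduct markers (7 genes) summed to at most 3.14 FPKM with alpha-amanitin and 62.3 FPKM in wild type, with Epcam called lower, and blood markers (6 genes, Hbb-bs and Hbb-bt listed at 0) to at most 1.58 FPKM with alpha-amanitin and 5.47 FPKM in wild type. Sperm markers (8 genes, Acr and Prm1 listed at 0 in all groups) summed to between 78.2 and 95.3 FPKM with alpha-amanitin and between 36.2 and 72.1 FPKM in wild type. Nearly all of that sum was Odf2, at 74.9 and 95.3 FPKM with alpha-amanitin and 36.1 to 66.2 FPKM in wild type, and it was not called; Prm2, Tnp1 and Tnp2 were also listed at 0 in both alpha-amanitin libraries. Whether any such cells were present, or had a part in the results, was not tested. Between 7935 and 7977 genes reached 1 FPKM with alpha-amanitin, against 10757 to 10950 in wild type. With the Kdm5a+b morpholinos, Kdm5a itself had 19.5 and 15.3 FPKM, against 12.8 and 9.44 FPKM in mismatch controls, and Kdm5b had 38.1 and 27.6 FPKM, against 55.3 and 39.6 FPKM in mismatch controls; a morpholino need not lower its target's RNA, so these levels check nothing.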

How the data were processed

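Per the file headers, the authors deposited 1 Cufflinks table per library with the FPKM of each gene and its lower and upper bounds. Per the submitters' processing notes the build was mm10. Which aligner and gene annotation the RNA reads were given is not stated in the sources used here. Counts are not in these tables, so the depth in reads is unknown; the median distance from FPKM to its bounds was 21.5% and 24.4% of FPKM with alpha-amanitin and between 11.9% and 19.4% in the other libraries. From FPKM, log2(FPKM + 1) was tested with limma 3.58.1 in R 4.3.3 on 13137 genes at 1 FPKM or more in at least 2 of 9 libraries. The model had group as its only term, 5 residual degrees of freedom and eBayes with trend; tests were two-sided, and p-values were adjusted by Benjamini-Hochberg over all tested genes, with calls under 0.05. On this scale the changes of low genes appear too small. The code was tested on simulated data. Members, gene lists and tests were chosen with earlier results of these data known. Named by rule were the 9 genes, in each list up to 4 called genes per direction (without calls, the 2 with the smallest p), the 3 of highest wild-type level in the translational control list, and the 2 genes most like each member. A gene of the translational control list is not reported here. ChIP and bisulfite samples, and others of the 65 without tables, were not used here. Alternatives were another pseudocount (0.1), no filter, quantile normalization, TPM, a replicate block, eBayes without trend, the compared groups only, each library left out, and, chosen after seeing the data, the mismatch control as reference.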

Additional observations from a re-analysis of the deposited data

How the results depend on the processing

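With alpha-amanitin, Cpeb2, Dazl and Ybx2 kept their direction and their calls in every alternative except the change of reference group. Leaving out each library in turn gave log2 differences of -2.998 to -2.67 for Cpeb2 (limma adjusted p 0.000838 to 0.00268), 1.58 to 2.35 for Dazl (0.00469 to 0.0424) and 1.22 to 1.70 for Ybx2 (0.00118 to 0.0304), with 2 to 2 of the 9 genes called higher and 1 to 1 lower. Quantile normalization called 4 higher, adding Cpeb3 (1.27, adjusted p = 0.0279) and Zar1 (2.20, adjusted p = 0.0264). With the mismatch control as reference 1 was called higher, Ybx2 missing the threshold (0.93, adjusted p = 0.0619), and Cpeb1 reversed to 0.95. Over all tested genes, 566 were higher and 3299 lower. Quantile normalization gave 1716 and 1806 and put the median difference of all genes at 0.17, beside -0.56 without it; TPM gave a median of -0.75 and the pseudocount of 0.1 one of -0.97. The count higher was 371 with the replicate block, 339 with the compared groups only, 310 with the mismatch control as reference and 298 to 502 without 1 library (362 without alpha-amanitin replicate 1, 298 without replicate 2), where the count lower was 2378 to 3155. Of the translational control list, 8 were higher under quantile normalization and under TPM and 3 with no filter and with the compared groups only, and 10 were lower under quantile normalization. In the morpholino comparisons no member was called in any alternative. Kdm5a+b against mismatch control called 17 genes higher and 10 lower with no filter, and 0 to 3 and 0 to 1 without 1 library; injected against wild type called 11 higher with no filter, and 0 to 1 and 0 to 2 without 1 library. Without 1 library the Kdm5a+b difference ran from -0.52 to 0.15 for Cpeb3, -0.27 to 0.16 for Cpeb4, -0.24 to 0.17 for Pum2 and -0.15 to 0.96 for Zar1, and the injected difference from -0.067 to 0.27, -0.10 to 0.35, -0.47 to 0.069 and -0.59 to 0.11 for the same genes. The cause of these changes was not tested. Same-numbered libraries of different groups had correlations of -0.040 to 0.041. This gave no sign of a shared shift but cannot tell whether they came from the same collection. With the replicate block Cpeb2 was at -2.998, Dazl at 2.35 and Ybx2 at 1.70, and no member's call changed. Only wild type has a replicate 3, so the block gives the same differences as leaving that library out. It is not a separate check of them. The width of the FPKM bounds, largest with alpha-amanitin, and 2 or 3 libraries per group limit what could be detected.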
